A study of Mus musculus with 4 samples.

Results

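The 10 alpha-defensins *Defa3*, *Defa5*, *Defa17*, *Defa24*, *Defa27*, *Defa28*, *Defa30*, *Defa32*, *Defa34* and *Defa37* were followed among the 22 measured genes whose GENCODE symbols start with *Defa*, in defensin-rich cells, meaning cells in which those 22 genes together held 30% or more of the UMIs (unique molecular identifiers, each standing for 1 captured transcript). The members were chosen from how the alpha-defensins of libraries labelled slc7a5 IEC-KO compare with those labelled slc7a5 fl/fl, so their values in that contrast are given as a description, with no test. Of 26498 cells, 10061 were defensin-rich, 1886 held 20 to 30% and 14551 held under 20%, where the level of the members was read as background. Only 4 of the 10 symbols are written as such in the files. The other 6 stand there under older names (*Gm15299* for *Defa27*, *Gm6696* for *Defa28*, *Gm15284* for *Defa30*, *Gm15308* for *Defa32*, *Gm15315* for *Defa34* and *Gm14850* for *Defa37*) and were joined by gene ID to the GENCODE M21 names. Likewise, 13 of the 22 *Defa* genes carry such a symbol in the files themselves.

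The study asked how the loss of the amino acid transporter SLC7A5 from the intestinal epithelium changes crypt cells. Crypts were isolated from the small intestine of mice aged 8 weeks, live EpCAM+ CD45- cells were sorted, and a 10x Genomics 3′ kit gave 4 libraries. The control group, labelled slc7a5 fl/fl, holds 2 libraries from mice with the floxed *Slc7a5* allele, which served as wild type. The other group, labelled slc7a5 IEC-KO, holds 2 libraries from mice with the same floxed allele and Cre under the villin promoter, which is active throughout the intestinal epithelium, so that every epithelial cell type is targeted and not Paneth cells alone. The sample records name 4 mice and do not say how they were divided among the libraries, so the spread between libraries may be technical.

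Paneth cells sit at the base of the small intestinal crypts beside the stem cells and secrete granules of antimicrobial proteins into the crypt lumen. Alpha-defensins, called cryptdins in the mouse, are among their main products: small cationic peptides, folded by disulphide bonds between conserved cysteines, that are made as inactive precursors and cut to the active form by the protease matrilysin (*Mmp7*) before they reach the lumen. The mouse genes arose by repeated duplication and lie side by side in a single cluster, where many copies are nearly identical.

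The 22 *Defa* genes lie on chromosome 8 (GRCm38, from 21025545 to 21735471, 710 kb), and all 10 members are on the plus strand. *Defa30* comes first among the members (21134642 to 21135598), followed by *Defa3* (21287409 to 21288377), *Defa5* (21297439 to 21298375) and *Defa27* (21315546 to 21316481). After a gap come *Defa32* (21529032 to 21530012), *Defa37* (21565386 to 21566349), *Defa28* (21583006 to 21583961), *Defa17* (21655780 to 21656735), *Defa34* (21665797 to 21666732) and *Defa24* (21734494 to 21735471). The members are thus spread over the cluster and do not form a block within it.

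The last 120 coding bases of the members (GENCODE M21 transcripts, 5′ to 3′) are shown because they hold the part that encodes the mature peptide and because copies that are alike here are hard to tell apart by 3′ reads. The first base of the mature part was not mapped. Capitals mark in-frame cysteine codons. The 10 members have 8 different sequences.
*Defa24*: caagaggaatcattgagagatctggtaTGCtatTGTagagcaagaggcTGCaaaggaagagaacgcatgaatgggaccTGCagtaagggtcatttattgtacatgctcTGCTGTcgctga
*Defa30*: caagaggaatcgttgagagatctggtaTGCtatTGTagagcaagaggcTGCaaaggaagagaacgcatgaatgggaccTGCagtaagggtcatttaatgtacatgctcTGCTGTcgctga
*Defa3* and *Defa17*: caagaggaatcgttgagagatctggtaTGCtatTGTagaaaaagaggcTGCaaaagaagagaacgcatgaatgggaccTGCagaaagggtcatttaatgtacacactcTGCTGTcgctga
*Defa27*: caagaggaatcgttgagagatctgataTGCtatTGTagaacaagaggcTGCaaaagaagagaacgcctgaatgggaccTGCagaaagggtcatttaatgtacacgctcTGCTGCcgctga
*Defa28*: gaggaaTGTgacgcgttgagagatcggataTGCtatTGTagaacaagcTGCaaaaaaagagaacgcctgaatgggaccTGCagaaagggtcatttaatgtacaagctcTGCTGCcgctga
*Defa32*: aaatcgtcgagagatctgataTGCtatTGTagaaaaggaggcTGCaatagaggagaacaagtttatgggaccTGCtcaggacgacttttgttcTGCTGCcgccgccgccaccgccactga
*Defa5* and *Defa34*: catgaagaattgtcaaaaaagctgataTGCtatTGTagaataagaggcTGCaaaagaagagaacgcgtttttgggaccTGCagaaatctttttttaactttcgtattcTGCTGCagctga
*Defa37*: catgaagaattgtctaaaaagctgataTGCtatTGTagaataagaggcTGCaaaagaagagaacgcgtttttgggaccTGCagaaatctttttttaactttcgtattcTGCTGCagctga
Each stretch carries 6 cysteine codons except that of *Defa28*, which carries 7. Whether the first of these 7 lies in the mature peptide was not checked.

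Coding sequences of the members were alike at 78.1% to 100% of positions over the 45 pairs (median 85.5%). *Defa24* and *Defa30*, which carry most of the signal described below, were each other's nearest relative among the alpha-defensins (98.6% identity), and *Defa3* and *Defa17* had the same coding sequence throughout. *Defa32* had the same coding sequence as *Defa20*, and *Defa37* the same as *Defa36*, neither of which is a member.

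To see which members reads of this kind could mix up, the last 300 bases of each transcript were cut into every window of 100 bases, and each window was looked for in the transcripts of all other genes. No window of *Defa24* or *Defa30* occurred elsewhere, whereas the other 8 members had some. For *Defa27* 15.8% of the windows were found in another transcript (its annotated transcript is 282 bases long and holds no bases beyond the coding sequence) and for *Defa28* 21.9%. The shares were 86.1% for *Defa3* and for *Defa17*, each in the other, 99.5% for *Defa5* and *Defa32*, and 100% for *Defa34* and *Defa37*. *Defa37* and *Defa36* were the same over all of the last 300 bases. The division of reads among *Defa5*, *Defa34*, *Defa37*, *Defa36*, *Defa35* and *Gm15293* (an alpha-defensin under another symbol) is therefore uncertain. So is that between *Defa3* and *Defa17*, and that among *Defa32*, *Defa20*, *Defa33* and *Defa2*. Values of these members hold for the counts as assigned. A UMI stands for 1 transcript end whatever the transcript's length, so levels in the text are shares of UMIs and are not divided by length.

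For 4 members RefSeq gave a promoter (GRCm38.p6, 250 bases before the start and 50 after). The promoters of *Defa30*, the second most abundant member, and of *Defa28*, the rarest, are shown. Capitals lie on the letters ATCAAAG, on TATAAA (the letters of a TATA box) and on CCAAT (those of a CAAT box), each on either strand.
*Defa30*, chr8:21134400-21134699, plus strand: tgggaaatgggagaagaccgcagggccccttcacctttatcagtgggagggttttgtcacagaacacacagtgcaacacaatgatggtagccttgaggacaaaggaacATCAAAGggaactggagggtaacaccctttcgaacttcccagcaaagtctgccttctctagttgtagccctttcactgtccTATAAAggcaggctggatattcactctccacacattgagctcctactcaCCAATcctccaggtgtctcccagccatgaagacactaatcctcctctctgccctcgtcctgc
*Defa28*, chr8:21582777-21583076, plus strand: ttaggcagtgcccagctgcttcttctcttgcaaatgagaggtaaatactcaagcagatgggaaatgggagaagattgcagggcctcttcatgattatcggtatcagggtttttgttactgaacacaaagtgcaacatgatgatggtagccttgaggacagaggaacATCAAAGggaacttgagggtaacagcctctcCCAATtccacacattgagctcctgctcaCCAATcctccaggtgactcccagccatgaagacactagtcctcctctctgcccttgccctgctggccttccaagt
ATCAAAG, the core sequence bound by TCF/LEF factors of the Wnt pathway, was found in all 4 of the members' promoters and in 13 of 16 *Defa* promoters, against 3.73% of the 32851 promoters of the same length. TATAAA was found in 3 of the 4 (not in that of *Defa28*) and in 15 of the 16, against 13.6% of all promoters. CCAAT was in 4 of 4 and 13 of 16, against 37.4%, and TGACGT was in none of the 16, against 7.51%. These are letters found in a window, not sites shown to be bound.

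The libraries differed in depth in ways that bear on every value of the members. The fl/fl-labelled libraries held 3633 and 3217 cells and the IEC-KO-labelled ones 10004 and 9644, with total UMI counts of 87922473 to 127094508 per library. Defensin-rich cells numbered 2102 and 2007 (57.9% and 62.4% of cells) in the fl/fl-labelled libraries and 2830 and 3122 (28.3% and 32.4%) in the IEC-KO-labelled ones, and their median totals were 45862 and 52128 UMIs against 12548.5 and 18370. Any pair of libraries had no more than 132 barcodes in common, of which 10 or fewer were defensin-rich in both. *Slc7a5* itself was at 0.970 and 0.815 CPM (UMI counts per 1000000 UMIs) in defensin-rich cells of the fl/fl-labelled libraries and at 3.99 and 4.90 in the IEC-KO-labelled ones. Its counts were thus higher under the IEC-KO label (log2 difference 1.64 ± 0.15 SE, edgeR quasi-likelihood test, adjusted p = 1.27e-07). The deleted exon 1 lies away from the 3′ end that the kit reads, so *Slc7a5* counts do not show whether it was lost, and the groups are named by their labels throughout.

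Of the 10 Paneth markers, 3 are alpha-defensins, which the rule itself makes high. The other 7 summed to 81129 and 73380 CPM in defensin-rich cells of the fl/fl-labelled libraries and to 70108 and 57064 in those of the IEC-KO-labelled ones, against 20204 to 20672 in cells under 20%. *Lyz1*, lysozyme, was at 35897 and 32769 CPM in the fl/fl-labelled libraries and at 18440 and 14265 in the IEC-KO-labelled ones. The 6 goblet markers summed to 19095 and 17855 CPM in defensin-rich cells of the fl/fl-labelled libraries and to 20927 and 23207 in the IEC-KO-labelled ones (85280 to 87781 in cells under 20%), and the 4 stem cell markers to 50.7 and 49.0 against 73.7 and 79.8. Both lists were thus higher in both IEC-KO-labelled libraries as shares of all UMIs, where 81.6% of the 12696 genes tested lay above too. Enteroendocrine markers were higher as well (459 and 480 CPM against 554 and 561), and tuft markers overlapped. Enterocyte markers (1044 and 978 against 557 and 672), cycling markers (91.7 and 86.4 against 68.5 and 78.0) and immune markers (36.7 and 28.8 against 16.1 and 12.5) were lower. The immune list is *Ptprc*, *Cd3e*, *Cd79a* and *Lyz2*, and its sum was lower still in cells under 20% (4.60 to 6.14 CPM). *Cd3e* had no UMI in defensin-rich cells of any library, and the part of each other gene in the sum was not checked. The part of these lists in the values of the members was not tested.

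By counts as assigned, *Defa24* and *Defa30* led the alpha-defensins in both groups and the other 8 members did not. No window of this pair occurred in another transcript, whereas the other 8 members had some. What this did to the ranks was not tested. *Defa24* ranked 1 and *Defa30* ranked 2 of the 22 in every library, 5 of the 10 most abundant *Defa* genes in each library were members, and *Defa27* and *Defa28* ranked between 16 and 18. The label of leading alpha-defensins therefore fits the amounts of *Defa24* and *Defa30*, and it separates no group here, because the same pair led in the fl/fl-labelled libraries.

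*Defa24* took 22.8% and 23.2% of all UMIs of defensin-rich cells in the fl/fl-labelled libraries and 25.5% and 24.5% in the IEC-KO-labelled ones (mean ± SD 22.98 ± 0.26 against 24.98 ± 0.71, n = 2 each). *Defa30* took 9.81% and 10.4% against 9.46% and 9.76%. Close to 1 in 4 counted UMIs of such a cell was thus assigned to *Defa24* whatever the label. The difference between groups, although the libraries did not overlap, was 1.09-fold for *Defa24* and 0.951-fold for *Defa30*.

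Of the members of middle abundance, *Defa17* took 1.11% and 1.15% of UMIs in the fl/fl-labelled libraries and 1.26% and 1.83% in the IEC-KO-labelled ones. *Defa32* took 1.80% and 2.27% against 1.32% and 1.79%, and *Defa37* 0.966% and 0.968% against 0.729% and 1.01%. *Defa17* was the only one of the 3 with both IEC-KO-labelled libraries on top; those of *Defa32* were both lower by a narrow margin, and those of *Defa37* lay on either side. The spread of the IEC-KO-labelled libraries was about as large as the difference between the group means for *Defa17* (SD 0.408 against a difference of 0.415 percentage points) and larger for *Defa37* (0.198 against -0.0985).

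*Defa3* took 0.220% and 0.197% of UMIs against 0.185% and 0.214% in the IEC-KO-labelled libraries, and *Defa34* 0.144% and 0.109% against 0.130% and 0.113%. *Defa5*, with 0.218% and 0.190% against 0.157% and 0.148%, was lower in both IEC-KO-labelled libraries. Of these 3 rarer members, *Defa3* and *Defa34* overlapped between the groups. *Defa17* held 5.07 and 5.83 UMIs for each UMI of *Defa3* in the fl/fl-labelled libraries and 6.80 and 8.55 in the IEC-KO-labelled ones, although the coding sequences of this pair are the same.

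The rarest members had the largest ratios. *Defa27* took 0.0291% and 0.0303% of UMIs in the fl/fl-labelled libraries and 0.0483% and 0.0572% in the IEC-KO-labelled ones, a 1.78-fold higher mean. *Defa28* took 0.00874% and 0.0103% against 0.0194% and 0.0277%, a 2.47-fold higher mean. Both rest on many UMIs (7778 to 37717 per library), so counting error is small beside the spread between libraries.

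**Figure D1:**
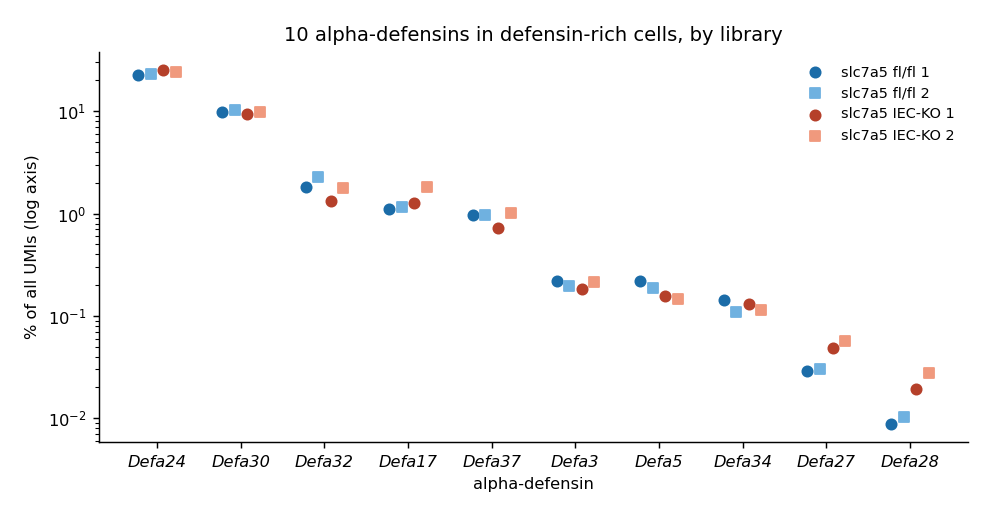
Share of all UMIs of defensin-rich cells (y axis, percent, log scale) taken by each of the 10 members (x axis), 1 point per library, circles for replicate 1 and squares for replicate 2, blue for libraries labelled slc7a5 fl/fl and red for those labelled slc7a5 IEC-KO. *Defa24* lies at 22.8% to 25.5% and *Defa28* at 0.00874% to 0.0277%, and *Defa27* and *Defa28* show both red points well above the blue ones.

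Counted over the list, 4 of the 10 members (*Defa17*, *Defa24*, *Defa27* and *Defa28*) had both IEC-KO-labelled libraries above both fl/fl-labelled ones, 3 (*Defa5*, *Defa30* and *Defa32*) had both below, and 3 overlapped, with a median log2 ratio of -0.06. Over the 12696 genes tested, 81.6% lay above and 5.95% below on this scale. The other 12 *Defa* genes had none above, 11 below and 1 overlapping (median log2 ratio -0.90), and the 6 alpha-defensins under other symbols had none above, 5 below and 1 overlapping (median -1.62). As the members were picked from this contrast, the counts restate the choice.

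The direction of a member depended on what it was divided by. As UMIs per defensin-rich cell, without any scaling, 9 members were lower in both IEC-KO-labelled libraries and 1, *Defa28*, overlapped (median log2 ratio -1.52), where 80.4% of all genes were lower and 2.83% higher. *Defa24* was at 10394 and 12033 UMIs per cell against 3610 and 5166, and *Defa30* at 4473 and 5399 against 1341 and 2061. *Defa28* was at 3.98 and 5.36 against 2.75 and 5.85. With TMM scaling (trimmed mean of M values, which sets the middle of all genes to no difference) instead of library size, the median gene moved by 0.70 on the log2 scale, and 8 members had fitted log2 differences below 0 (-0.25 for *Defa17*, -0.58 for *Defa24*, -0.77 for *Defa30* and -1.12 for *Defa5*, for example), with *Defa27* at 0.13 and *Defa28* at 0.60. *Defa17* and *Defa24* thus change sign with the scaling, at 0.45 and 0.12 by library size. *Defa27* and *Defa28* were above 0 under both, but with all cells thinned to 3500 UMIs *Defa27* was at -0.10 by TMM. Single libraries moved these 3 by more than 1.5 times: *Defa17* was at -0.02 without IEC-KO replicate 1 and at -0.52 without IEC-KO replicate 2, and *Defa27* at 0.05 without fl/fl replicate 1, 0.21 without fl/fl replicate 2, 0.23 without IEC-KO replicate 1 and 0.03 without IEC-KO replicate 2. *Defa28* was at 0.35 without IEC-KO replicate 2.

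Within the alpha-defensins, the members took a larger part in the IEC-KO-labelled libraries. Together they took 66.1% and 65.5% of the UMIs of the 22 *Defa* genes in defensin-rich cells of the fl/fl-labelled libraries and 82.5% and 81.2% in the IEC-KO-labelled ones (65.8 ± 0.4 against 81.9 ± 0.9, SD, n = 2 each). Nearly all of this lay in *Defa24*, at 40.6% and 39.4% against 54.2% and 50.4%, and *Defa30*, at 17.5% and 17.7% against 20.1% and 20.1%. The remaining 8 members summed to 8.02% and 8.39% against 8.18% and 10.7%, which overlap. On this scale 6 members were above in both IEC-KO-labelled libraries (*Defa3*, *Defa17*, *Defa24*, *Defa27*, *Defa28* and *Defa30*), none were below and 4 overlapped, where 88.1% of all genes tested lay above and 2.99% below. *Defa20*, *Defa21*, *Defa22* and *Defa29*, which are not members, summed to 28.7% and 31.7% against 15.3% and 17.1%. Shares within a whole add up to 100%, so a rise of some genes and a fall of others are a single shift.

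**Figure D2:**
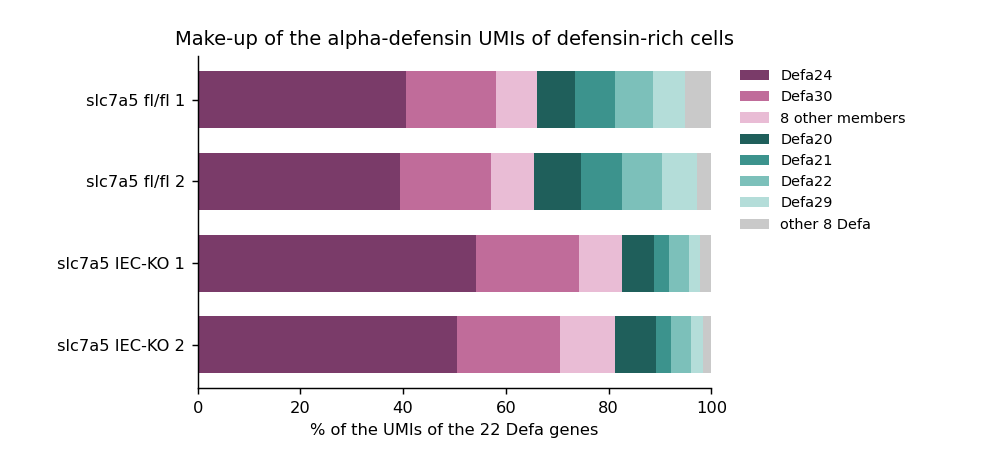
Make-up of the alpha-defensin UMIs of defensin-rich cells in each library, as stacked bars of the percent of the UMIs of the 22 *Defa* genes (x axis) taken by *Defa24*, *Defa30*, the other 8 members, 4 abundant genes that are not members and the remaining 8. *Defa24* takes 39.4% to 40.6% in the fl/fl-labelled bars and 50.4% to 54.2% in the IEC-KO-labelled ones, while *Defa21* goes from 7.66% and 7.91% to 2.86% and 2.94%.

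The same difference was seen cell by cell. With each defensin-rich cell thinned to 1000 *Defa* UMIs so that depth was equal, the median cell had *Defa24* at 43.1% and 41.1% of its *Defa* UMIs in the fl/fl-labelled libraries and at 56.9% and 54.3% in the IEC-KO-labelled ones. *Defa24* was the most abundant *Defa* gene in 100% of defensin-rich cells of all 4 libraries. The effective number of alpha-defensins (the exponential of the Shannon entropy of a cell's *Defa* UMIs, equal to the number of genes if all were even) had medians of 6.43 and 6.44 against 3.90 and 4.17, and its range from the 5th to the 95th percentile of cells was 4.50 to 8.12 and 4.35 to 7.92 against 2.37 to 6.46 and 2.66 to 6.79. A typical defensin-rich cell of the IEC-KO-labelled libraries thus had a narrower repertoire of the 22 *Defa* genes, and the ranges of cells overlapped. The effective number was not taken in cells matched on their total *Defa* share, which differed between the groups.

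Cells differed from each other more in the IEC-KO-labelled libraries for the leading members. The SD between cells of the *Defa24* share was 8.28 and 8.68 percentage points in the fl/fl-labelled libraries and 12.7 and 12.3 in the IEC-KO-labelled ones, and that of *Defa30* was 4.29 and 4.40 against 7.95 and 7.43. The groups also differed in the mix of cells. Cells with 30 to 40% of UMIs in *Defa* genes numbered 96 and 77 against 947 and 883, and those with 50 to 60% 1496 and 986 against 798 and 1019. The part of this mix in the SDs was not tested. For *Defa28* the variance between cells was 1.02 to 1.17 times that of counting alone in the 4 libraries, so its spread over cells was little more than counting error. *Defa32* varied 13.0 to 28.0 times more than counting gives.

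**Figure D3:**
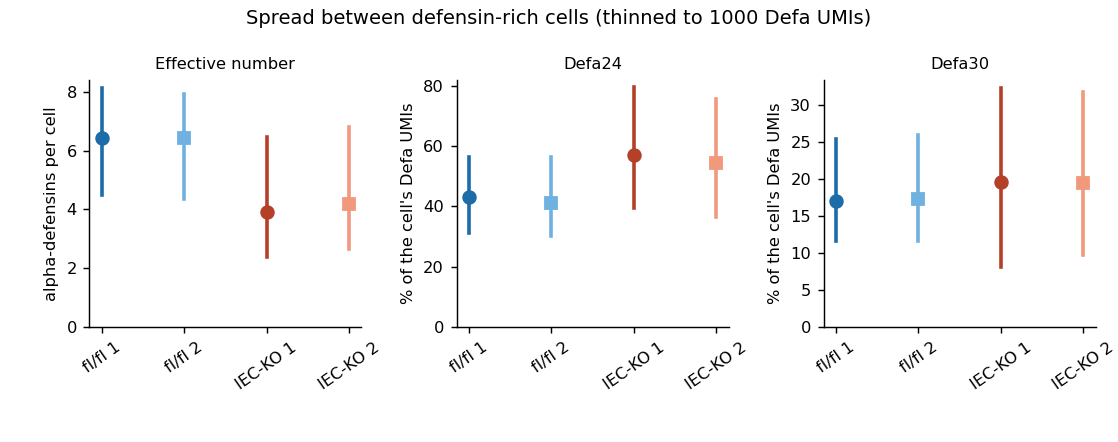
Spread over defensin-rich cells in each library, each cell thinned to 1000 *Defa* UMIs: effective number of alpha-defensins, and *Defa24* and *Defa30* as a percent of the cell's *Defa* UMIs, with the median as a symbol and the 5th to 95th percentile of cells as a line. Medians of the effective number are 6.43 and 6.44 in the fl/fl-labelled libraries and 3.90 and 4.17 in the IEC-KO-labelled ones, and *Defa30* lines are longer in the latter.

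The shares of *Defa* UMIs that went to *Defa24*, *Defa17* and *Defa32* moved with how much alpha-defensin a cell held, in every library. From cells with 30 to 40% of their UMIs in *Defa* genes to those with 60% or more, *Defa24* went from 53.4% and 56.5% to 33.2% and 34.8% in the fl/fl-labelled libraries and from 64.8% and 62.3% to 41.8% and 37.0% in the IEC-KO-labelled ones. *Defa17* went the same way, from 4.45% and 4.71% to 1.43% and 1.55%, and from 3.86% and 5.59% to 1.68% and 2.19%. *Defa32* went the other way, from 2.93% and 2.90% to 5.40% and 5.28%, and from 1.85% and 2.04% to 4.44% and 6.65%. Cells richest in alpha-defensins therefore had less of their *Defa* UMIs in *Defa24* and *Defa17* and more in *Defa32*. They also had more UMIs (medians of 52720 and 57698, and of 20288 and 37019, with 60% or more, against 14341.5 and 15684, and 9609 and 13181, with 30 to 40%).

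This matters for the groups, because defensin-rich cells held 56.2% and 58.7% of their UMIs in *Defa* genes in the fl/fl-labelled libraries and 47.0% and 48.6% in the IEC-KO-labelled ones. In cells matched on that share, at 50 to 60% (1496 and 986 cells against 798 and 1019), the members together took 67.7% and 70.0% of *Defa* UMIs against 79.4% and 78.8%, a difference of 10.2 percentage points where it was 16.0 over all defensin-rich cells. *Defa24* was at 41.8% and 43.3% against 48.9% and 46.2%, and *Defa30* at 18.3% and 19.4% against 22.3% and 22.1%. The difference in *Defa24* was smaller in these cells than over all defensin-rich cells. This range was chosen after seeing the data, and the size of the *Defa30* difference varied with the range taken. Depth stayed unequal in these matched cells (median totals of 47198 and 51492.5 against 16239 and 23211 UMIs), and its part was not tested.

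Over the 4 bins from 30% upwards, *Defa24*, *Defa28* and *Defa30* lay above in both IEC-KO-labelled libraries in all 4, with ratios of 1.12 to 1.17, 1.31 to 2.75 and 1.11 to 1.41. Relative to *Defa* UMIs, 39.6%, 50.6%, 72.3% and 47.3% of all genes tested lay above in the successive bins and 13.6%, 11.6%, 6.71% and 10.7% below. *Defa27* lay above in 2 and overlapped in 2. *Defa3* was below in the 2 bins under 50% and above in the 2 from 50%, with ratios of 0.766 to 1.37. *Defa32* was below at 30 to 40% (ratio 0.668), above at 50 to 60% (1.39) and overlapped in the other bins. *Defa5*, *Defa34* and *Defa37* overlapped in all 4. *Defa17*, which stood out over all defensin-rich cells, overlapped in 3 of the 4, as the IEC-KO-labelled replicate 1 lay within or below the fl/fl-labelled values there. *Defa21*, *Defa22* and *Defa29*, which are not members, were below in all 4, *Defa29* at 0.313 to 0.383 of the fl/fl-labelled mean.

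**Figure D4:**
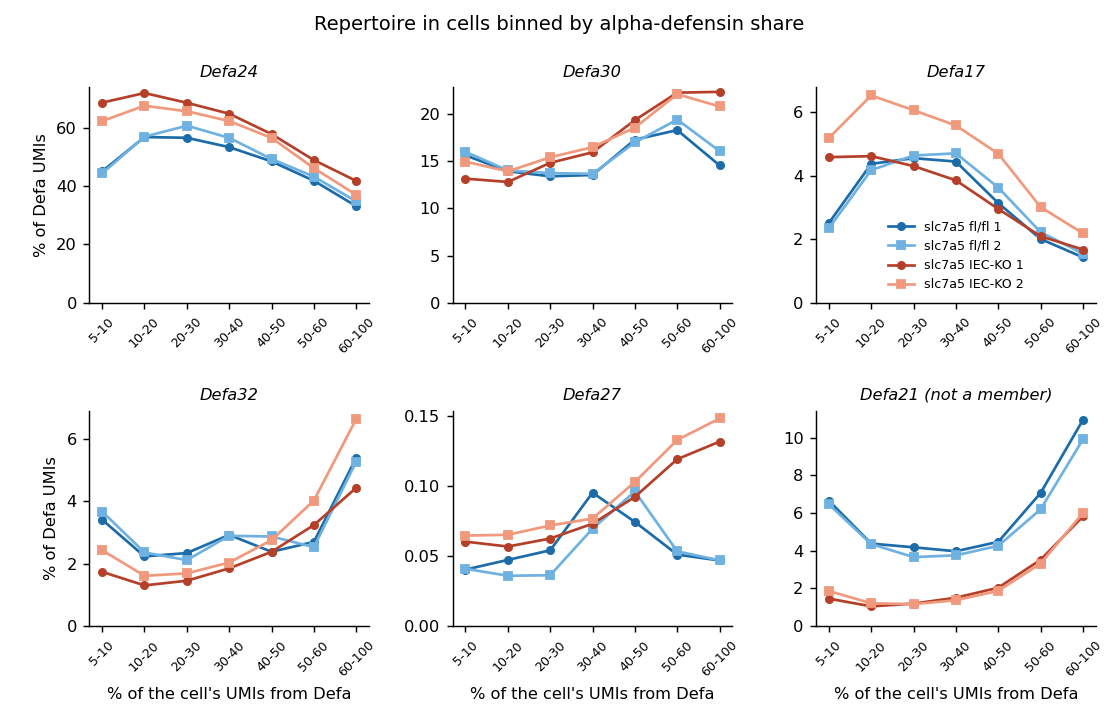
Percent of a bin's *Defa* UMIs (y axis) taken by 5 members and by *Defa21*, which is not one, in cells binned by the percent of their UMIs that come from *Defa* genes (x axis), 1 line per library, colours and symbols as in the plot of levels by library. *Defa24* and *Defa17* decline from the 30 to 40% bin to the last in all libraries, *Defa30* is higher in the red lines from the 20 to 30% bin on, and *Defa21* is lower in the red lines throughout.

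*Defa27* had its own course over these bins. In the fl/fl-labelled libraries it peaked at 0.0952% of *Defa* UMIs in the 30 to 40% bin of replicate 1 and at 0.0961% in the 40 to 50% bin of replicate 2, and was at 0.0468% and 0.0469% in the last bin. In the IEC-KO-labelled libraries it went up to 0.132% and 0.148% in the last bin. The libraries overlapped between 30 and 50%, and in the last bin the IEC-KO-labelled mean was 2.99 times the other.

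Just inside and just outside the limit of 30%, the members' share of *Defa* UMIs was alike. Cells of 25 to 30% had 78.1% and 83.8% in the fl/fl-labelled libraries (44 and 27 cells) and 90.6% and 90.7% in the IEC-KO-labelled ones (462 and 434 cells). Cells of 30 to 35% had 78.3% and 83.4% (46 and 38 cells) against 90.4% and 89.7% (460 and 435 cells). The members' share of *Defa* UMIs thus showed no step at the limit, and genes outside the alpha-defensins were not compared there.

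Over the defensin-rich cells of a library, some members went together. Correlations were taken over cells between shares of *Defa* UMIs and describe cells of 1 library, which share its free RNA; as parts of a whole they also push against each other. Partners were *Defa* genes with a mean of 1 UMI or more per thinned cell in all 4 libraries, so rarer ones could not be chosen. Alpha-defensins under other symbols were not compared. *Defa17* and *Defa24* were each other's most alike gene among these partners (mean Pearson r 0.634, 0.610 to 0.659 over the 4 libraries, 2007 to 3122 cells each). *Defa32* was most like *Defa33* (mean 0.798, 0.721 to 0.854) and ran against *Defa24* (-0.734, -0.714, -0.559 and -0.623). Of the windows of *Defa32*, 99.5% occur in other transcripts, that of *Defa33* among them. The part of read assignment in the r of *Defa32* with *Defa33* was not tested. *Defa30* was most like *Defa29* (mean 0.477), and *Defa5* was most like *Defa22* (0.428). For *Defa3*, *Defa27*, *Defa28* and *Defa37* the highest mean was under 0.25, and that of *Defa34*, with *Defa20*, was 0.327.

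*Defa24* and *Defa30*, each the other's nearest relative in coding sequence, went together over cells in one group and against each other in the other. Over cells, r was 0.417 and 0.387 in the fl/fl-labelled libraries and -0.565 and -0.475 in the IEC-KO-labelled ones. *Defa17* and *Defa30* went from 0.055 and 0.048 to -0.575 and -0.533. In fl/fl-labelled libraries cells with a larger *Defa24* share tended to have a larger *Defa30* share, and in IEC-KO-labelled ones a smaller share. Both are parts of 1 whole, of which the pair held 58.1% and 57.1% in the former and 74.3% and 70.5% in the latter. What this and the spread of cells over total *Defa* shares did to r was not tested. Over the same cells the *Defa30* share had a rank correlation with the cell's total *Defa* share of -0.142 and -0.171 in the former and 0.378 and 0.344 in the latter, while for *Defa24* it was between -0.602 and -0.658 in all 4.

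UMIs of the trypsinogen genes *Try4*, *Try5* or *Try10* were in 12.6% and 11.0% of the defensin-rich cells of the IEC-KO-labelled libraries and in none of the fl/fl-labelled ones when cells were thinned to 3500 UMIs (71.2 and 53.0 against 0.0313 and 0.0192 CPM without thinning). *Try10* had no UMI in defensin-rich cells of any library. Cells under 20% of the IEC-KO-labelled libraries had such UMIs too, in 4.66% and 4.82% of cells at the same depth (21.0 and 21.6 CPM). The part of free RNA in the split was not tested. In the IEC-KO-labelled libraries, cells with such a UMI had *Defa30* at 21.9% and 22.6% of *Defa* UMIs and cells without at 19.9% and 19.8%. *Defa32* was at 2.34% and 2.73% with and 2.87% and 3.81% without. Leaving these cells out, the members' share of *Defa* UMIs was 82.3% and 80.9%, beside 82.5% and 81.2% in all defensin-rich cells.

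In cells under 20% of *Defa* UMIs the level of the members was read as background. No cell was without alpha-defensin UMIs: the lowest *Defa* share of any cell was 3.98% and 4.70% in the fl/fl-labelled libraries and 1.99% and 2.87% in the IEC-KO-labelled ones. In these cells *Defa24* took 3.28% and 3.57% of UMIs against 4.02% and 4.35%, *Defa30* 1.04% and 1.16% against 0.859% and 1.06%, and *Defa17* 0.203% and 0.212% against 0.270% and 0.391%. Every member was thus seen at a level of 6.63% to 21.4% of that in defensin-rich cells, highest for *Defa17* (18.3% and 18.5% against 21.4% and 21.3%) and lowest for *Defa5* (8.50% and 8.46% against 6.63% and 7.66%) and *Defa34* (8.70% and 8.04% against 6.93% and 7.26%). Summed, the members took 4.94% and 5.39% of UMIs against 5.41% and 6.15%, a difference of 0.61 percentage points that turned to -0.34 when only cells under 10% were taken. Cells of 10 to 20% numbered 179 and 152 against 936 and 995, and in them the members took 11.2% and 11.4% of UMIs against 13.6% and 13.5%. How much of the level under 20% was free RNA was not tested.

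The make-up of this background differed between the groups in the same direction as that of the defensin-rich cells. Members took 72.2% and 72.1% of the *Defa* UMIs of cells under 20% in the fl/fl-labelled libraries and 88.9% and 87.7% in the IEC-KO-labelled ones. In cells there with UMIs of at least 3 of the 6 enterocyte markers (690 and 555 cells against 1509 and 1624) they took 71.3% and 71.4% against 87.9% and 87.0%, and with at least 3 of the 5 cycling markers (184 and 149 against 358 and 352) 71.0% and 71.0% against 86.5% and 85.2%. Within a library the members thus held a like ratio to the other *Defa* genes in cells with enterocyte or cycling markers. Those cells held 4.26% to 7.13% of their UMIs in *Defa* genes. The same rule with goblet markers took every cell under 20% (1449 and 1127 cells against 6266 and 5709). The marker sets thus overlap and do not isolate cell types.

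**Figure D5:**
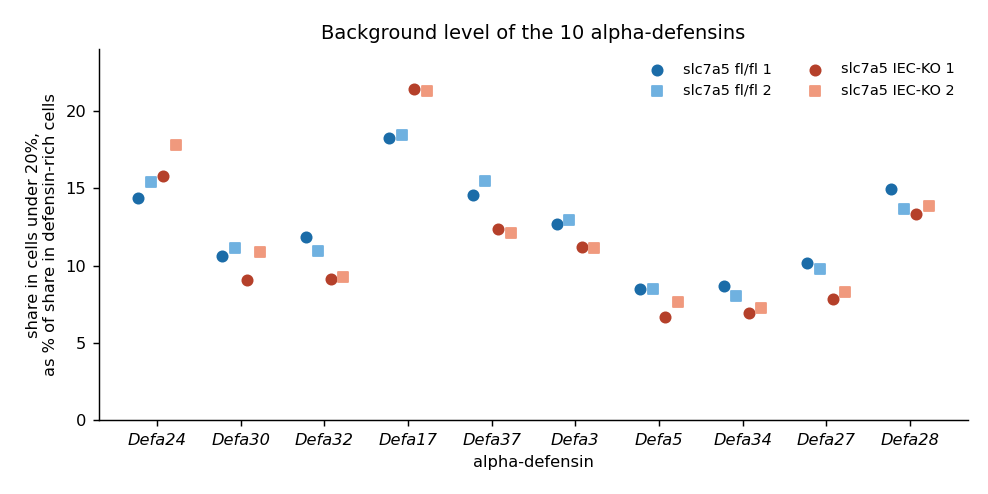
Level of each member in cells under 20% of *Defa* UMIs as a percent of its level in defensin-rich cells (y axis, both levels as shares of UMIs), 1 point per library, colours and symbols as in the plot of levels by library. All points lie between 6.63% and 21.4%, and *Defa17* is highest in all 4 libraries.

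Seen as cells with at least 1 UMI, *Defa24* and *Defa30* were in 100% of cells of both kinds, so their presence marks no cell type here. With cells thinned to 3500 UMIs, *Defa27* was seen in 58.9% and 61.8% of defensin-rich cells of the fl/fl-labelled libraries and in 64.1% and 70.0% of the IEC-KO-labelled ones, against 9.04% and 8.07%, and 11.3% and 13.6%, of cells under 20%. *Defa28* was seen in 26.4% and 30.0% against 46.7% and 58.1% of defensin-rich cells, and in 3.86% and 4.44% against 7.79% and 11.6% of cells under 20%. Without thinning, *Defa28* was seen in 93.3% and 96.1% against 81.8% and 92.7% of defensin-rich cells, an order set by the deeper fl/fl-labelled cells. The other 8 members were seen in 88.4% or more of the thinned defensin-rich cells of every library, so that shares of cells with a UMI could differ little for them.

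Genes outside the alpha-defensins followed the members weakly. Among 883 genes with a UMI in at least 10% of thinned defensin-rich cells of every library, the 5 most like the summed members were *Clps*, pancreatic-type colipase (mean r 0.281, from 0.147 to 0.437 over the 4 libraries), *Ang4*, an antimicrobial ribonuclease (0.123), *Pnliprp2*, a lipase (0.112), *Mptx2*, a mucosal pentraxin (0.0523), and *Rnase1*, a ribonuclease (0.0320). Only *Clps* was above 0.1 in all 4 libraries, and since every thinned cell has the same total, the members leave fewer UMIs for other genes wherever they are high.

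Genes listed for the Paneth granule moved both ways in defensin-rich cells. The list holds *Nupr1* (called higher) and *Sntb1* (called lower, at 5 to 41 UMIs per library), whose place in the granule was not checked. Of 15 listed genes, 14 were tested (*Pla2g2a* is not a symbol in the files), and 5 were higher and 6 lower in the IEC-KO-labelled libraries (edgeR quasi-likelihood test with TMM, adjusted p below 0.05), beside 21.2% and 21.0% of all 12696 genes. *Lyz1* (log2 difference -1.76 ± 0.18 SE), *Ang4* (-1.82 ± 0.14) and *Mptx2* (-1.74 ± 0.14) were lower, as was *Clps* (-1.50 ± 0.13). *Reg4*, a C-type lectin, was higher (1.97 ± 0.12), and *Mmp7*, which cuts the alpha-defensin precursors, was at 1551 and 1382 CPM against 3194 and 2813 (0.34 ± 0.11, adjusted p = 0.0206). The call of *Mmp7* was lost without either fl/fl-labelled library (0.37 and 0.30) and in thinned cells (0.26). With library size in place of TMM, 8 were higher and 6 lower, beside 74.6% and 3.34% of all genes, and all 6 that were lower with TMM were lower there too.

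Of 12 factors of the secretory lineage and of Wnt signalling, 6 were higher, 3 lower and 3 passed no threshold in the same test. Over all 12696 genes, 21.2% were higher and 21.0% lower, so the part of the factors that was lower was near that of all genes. *Atoh1*, which sets the secretory fate, was at 25.2 and 22.1 CPM against 57.7 and 59.2 (log2 difference 0.61 ± 0.07 SE, adjusted p = 1.24e-06). *Sox9*, needed for Paneth cells, was at 23.3 and 23.7 against 52.9 and 59.3 (0.56 ± 0.07), and *Xbp1*, a driver of the secretory machinery, at 41.4 and 37.2 against 95.4 and 94.1 (0.57 ± 0.07). *Fzd5*, the Wnt receptor of Paneth cells (-0.63 ± 0.12), *Ascl2* (-1.30 ± 0.15) and *Bhlha15* (-0.44 ± 0.08) were lower. *Fzd5* and *Bhlha15* were not called in thinned cells (-0.70 and -0.29). By library size 10 were higher and only *Ascl2* lower, where 74.6% of all genes were higher and 3.34% lower, while *Fzd5* and *Bhlha15* turned to 0.08 and 0.27. As shares of all UMIs, goblet and stem cell markers were higher in both IEC-KO-labelled libraries, as were 81.6% of all genes tested. Enterocyte and cycling markers were lower in both. These marker sums were not scaled by TMM, and their part in the factors was not tested. The factors were rare, at 95.4 CPM or fewer.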

How the data were processed

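Single cell libraries of sorted small intestinal crypt epithelium were used, 2 labelled slc7a5 fl/fl and 2 labelled slc7a5 IEC-KO. The authors deposited raw UMI counts per gene and called cell barcode (27998 genes). The processing notes name Cell Ranger 2.1.1 and build mm10; the study's methods name another release, so the release is unsure. Counts were used as deposited, with no further cell filter and no removal of doublets. Gene names and positions are those of GENCODE M21, joined by gene ID (27722 genes matched); *Defa* means these names.

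Members and lists were chosen with earlier results of these data known. Named are the members, the listed genes, *Slc7a5*, the 5 genes most alike, and other alpha-defensins where they bear on a member. Member values are shares of counts per library, as mean ± SD. Sums over defensin-rich cells were tested with edgeR 4.0.16 in R 4.3.3 (quasi-likelihood, TMM, filterByExpr, Benjamini-Hochberg at 0.05). With 2 libraries per group, n is small, and counting error is not the limit. The fit was tested on simulated data. Alternatives were other cell limits (40% and 10%), the 6 other alpha-defensin symbols, a common lower limit of 9670 UMIs, means over cells, no thinning, other scalings and filters, DESeq2 1.42.0, a replicate block, thinning to 3500 UMIs and each library left out. Chosen after seeing the data were cells of 50 to 60% and cells without trypsinogen UMIs. Sequences are from GENCODE transcripts and RefSeq promoters, compared with edlib 1.3.9.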

Additional observations from a re-analysis of the deposited data

How the results depend on the processing

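The member values rest on 2 libraries per group and on counts whose division among near-identical copies is uncertain. The members' share of all UMIs in defensin-rich cells was 1.31 percentage points higher in the IEC-KO-labelled libraries, 3.52 with a limit of 40%, 0.29 as a mean over cells and 4.41 in cells of 50 to 60% *Defa* UMIs. Their share of *Defa* UMIs was 16.0 points higher, 14.7 with the limit of 40%, 21.3 with the other alpha-defensin symbols counted, 16.9 as a mean over cells and 10.2 in cells of 50 to 60%. In cells under 20% their share of UMIs was 0.61 points higher, -0.34 with a limit of 10% and 2.66 above a common lower limit of 9670 UMIs. The effective number differed by -2.40, by -2.03 with the limit of 40%, -3.83 with the other symbols and -2.18 above the common limit. Leaving out each library in turn gave 0.62 to 2.00, 15.4 to 16.7, 0.24 to 0.98 and -2.53 to -2.27 for these 4 values. The first was 0.62 without fl/fl replicate 1 and 2.00 without fl/fl replicate 2, and the third 0.39 without fl/fl replicate 1, 0.98 without IEC-KO replicate 1 and 0.24 without IEC-KO replicate 2. Among these 4, only the limit of 10% turned a direction.

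Of all genes, 2686 were higher and 2660 lower; by library size 9465 and 424, in cells thinned to 3500 UMIs 1071 and 1115, with DESeq2 1820 and 1717, and with a library left out 2120 to 2523 and 2183 to 2471. Listed granule genes higher were 8 by library size, and factors 10 higher and 1 lower, with 1 lower when thinned. Fitted log2 differences that changed sign by library size were *Defa17* 0.45, *Defa24* 0.12, *Itln1* 0.54, *Reg3b* 0.67, *Bhlha15* 0.27, *Creb3l2* 0.66, *Fzd5* 0.075 and *Axin2* 0.69. *Defa27* was at -0.10 when thinned, and *Axin2* at 0.063 with the limit of 40%. With each library left out, *Reg3b* ranged from -0.086 to 0.041, *Reg3g* from -0.0099 to 0.222, *Creb3l2* to 0.0093 and *Axin2* from -0.110 to 0.054. The cause of these changes was not tested. Deviations of same-numbered replicates from their group means had r = 0.027. With 2 libraries per group both pairs give the same r, so it cannot show whether the numbers pair the libraries. The replicate block gave 2768 higher and 2742 lower, and the same counts for listed granule genes (5 and 6) and factors (6 and 3).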
